A study of Penicillium oxalicum with 24 samples.

Results

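The comparison was between mycelia of *Penicillium oxalicum* lacking the transcription factor gene *amyR* and mycelia lacking the transcription factor gene *clrB*, both grown on cellulose. It set 3 libraries of the Δ*amyR* mutant against 3 libraries of the Δ*clrB* mutant, chosen by genotype and carbon source from the 24 libraries of the series, and asked directly how losing the amylase activator differs from losing the cellulase activator. All 6 cultures were first kept in 2% glucose for 22 h, then 2 h without carbon source, then 4 h in 2% cellulose, in Vogel's medium. The same treatment was given to 3 libraries of the wild-type strain 114-2, which carries neither deletion and whose levels are given here as a description with no test. By the study's text and strain list, both mutants were made in the wild-type strain 114-2. The study's set of deletion cassettes put a pyrithiamine resistance marker in place of the coding region, and whether each sequenced mutant was 1 clone is not said. The samples were described as biological triplicates. They were whole mycelium, so fewer hyphae expressing a gene and less RNA per hypha cannot be told apart.

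Filamentous fungi that live on plant matter secrete sets of enzymes that break polysaccharides down to sugars, and regulator proteins of the zinc cluster type switch the genes of each set on. ClrB belongs with the CLR-2 and ClrB regulators of *Neurospora crassa* and *Aspergillus nidulans*, which activate cellulase genes when cellulose is present. AmyR is best known from *Aspergillus*, where it activates the amylase and glucosidase genes needed to use starch and maltose. CreA, a repressor present in both mutants, lowers expression of many such genes when glucose is available.

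The deleted genes were read as the labels say. *clrB* (PDE_05999) had 2130, 2328 and 1769 reads in the Δ*amyR* libraries, against 3, 1 and 1 reads in the Δ*clrB* libraries. Its level in Δ*amyR* mycelia, 122, 116 and 92.8 RPKM, lay beside the 108, 107 and 114 RPKM of the wild type. RPKM is a read count divided by the transcript's length and by the library's mapped reads. *amyR* (PDE_03964) had 1, 0 and 0 reads in the Δ*amyR* libraries, against 2570, 1764 and 1805 reads in the Δ*clrB* libraries, where it stood at 182, 138 and 124 RPKM with 214, 210.4 and 209 RPKM in the wild type. Each mutant therefore still transcribed the regulator gene deleted in the other. Against a floor of 3 reads in each library, *clrB* was at least 646-fold higher and *amyR* at least 728-fold lower in the Δ*amyR* mutant.

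Reads assigned to genes numbered 7.5e+06 to 8.5e+06 per Δ*amyR* library and 7.0e+06 to 7.9e+06 per Δ*clrB* library. The 20 most abundant genes took 17% to 18.4% of the reads in Δ*amyR* libraries, against 12.3% to 14.2% in Δ*clrB* libraries. Scaling factors that correct for this shifted the median of all genes by 0.23 on the log2 scale, so fitted fold changes lie above the ratios of the RPKM values printed. Replicates correlated at 0.979 to 0.990 within Δ*amyR* and at 0.975 to 0.978 within Δ*clrB* (Pearson's r of log2 RPKM across genes, which are not independent replicates). Some Δ*clrB* libraries stood apart in groups of genes described further on: replicate 1 had little RNA of the genes PDE_01187 to PDE_01195, and replicate 3 had few ribosomal protein reads and high RNA of branched-chain amino acid breakdown genes.

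Of 9176 genes tested, 133 were higher in Δ*amyR* than in Δ*clrB* mycelia and 270 were lower. A gene was called when the quasi-likelihood test of edgeR gave a p under 0.05 after Benjamini-Hochberg adjustment and the fitted fold change was above 2 (log2 above 1 or below -1). Fitted changes above 16-fold numbered 28 among the genes that were higher and 16 among those that were lower. These counts include genes with almost no reads in the lower strain, whose fitted values are uncertain. PDE_05937 and PDE_09236 are among them, and further on they have no fold or only a bound under 16-fold. In 125 of the 133 higher genes and 259 of the 270 lower genes, the RPKM values of the mutants did not overlap. The share without overlap among all 9176 genes tested was not counted. Calling already selects genes that differ, so lack of overlap in called genes is no separate evidence, here or further on. Wild-type mycelia lay between the mutants for 98 of the 133 higher genes. Among the 270 lower genes, the wild type lay between the mutants for 151 and above both for 105. Over all 9176 genes tested, the wild-type mean RPKM was above both mutants for 5996, between them for 2204 and below both for 976. RPKM is not corrected for the share of reads that the most abundant genes take, so these positions describe RPKM only. The Δ*clrB* replicates spread more widely than those of Δ*amyR* in the lower genes, with median coefficients of variation of 21.8% in Δ*amyR* and 37.8% in Δ*clrB*. With reads scaled by library totals alone, 94 genes were higher and 498 lower, so that the higher genes made up 15.9% of the calls in place of 33.0%. Testing log2(RPKM + 1) with limma gave 87 higher and 363 lower genes. Leaving out Δ*amyR* replicate 2 reduced the lower genes to 153.

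**Figure D1:**
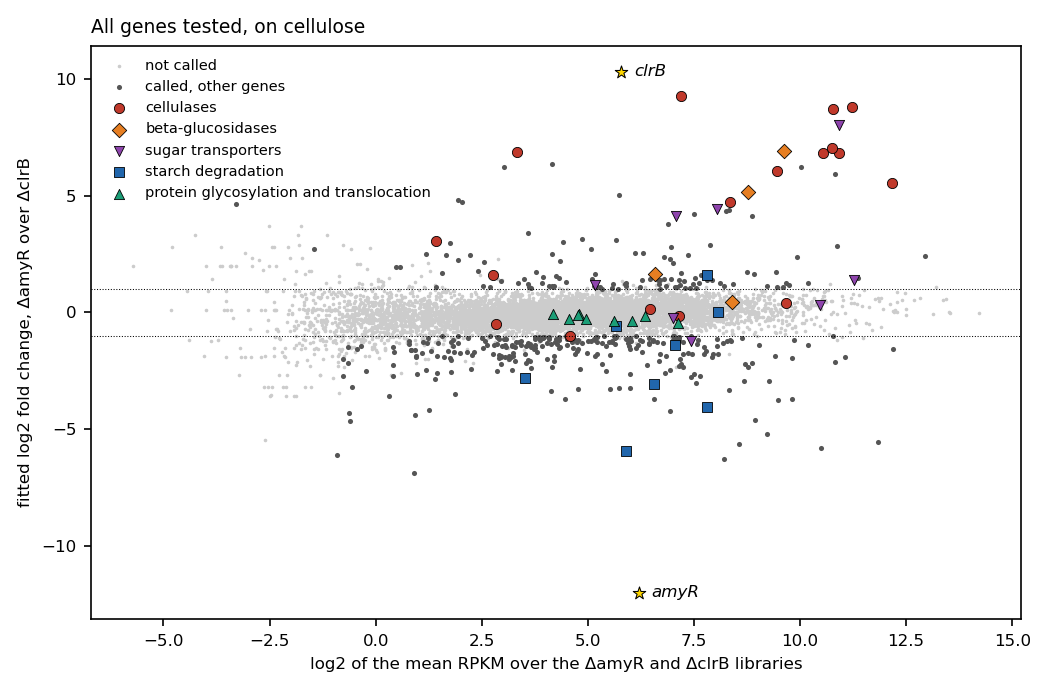
Fitted log2 fold change of Δ*amyR* over Δ*clrB* for each gene tested, on the vertical axis, against the log2 of its mean RPKM over the 6 libraries, on the horizontal axis. Red circles are cellulase genes, orange diamonds β-glucosidase genes, purple triangles sugar transporter genes, blue squares starch degradation genes and green triangles genes of protein glycosylation and translocation. The 14 genes without reads in either mutant are not drawn. Dotted lines mark a 2-fold change, and most red circles sit far above the upper line at high levels, while most blue squares sit below the lower line.

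Most cellulase genes had far more RNA in the Δ*amyR* mutant. Of 17 predicted cellulase genes, 12 were higher in the Δ*amyR* mutant, 1 was lower and 4 were not called, where 1.45% of all genes tested were called higher and 2.94% lower. The median log2 fold change of the list was 5.56, against -0.03 for all genes tested. Together these genes took 4.47%, 5.16% and 3.67% of the reads in Δ*amyR* libraries, against 0.203%, 0.197% and 0.209% in Δ*clrB* libraries, with 0.799%, 0.695% and 0.545% in the wild type. The mutants thus stood on either side of the wild type, and for each of the 12 called genes the wild-type mean lay between them. The same 12 to 1 split of the calls was found in 11 of 14 other ways of processing the reads, and the 12 higher calls were counted in all 14. The list was taken from the study's own tables and text, part of which rest on these samples, so its direction is not independent evidence.

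*cbh1* (PDE_07945) encodes the cellobiohydrolase that cuts cellobiose from chain ends and is usually the main cellulase protein such fungi secrete. It stood at 8562, 11191 and 7098 RPKM in Δ*amyR* mycelia, against 155, 227 and 275 RPKM in Δ*clrB* mycelia, with 1323, 950.1 and 734 RPKM in the wild type. Its log2 fold change was 5.56 ± 0.41 (SE, adjusted p = 4.63e-09), or 47.3-fold. By mean RPKM it ranked 8 among all genes in Δ*amyR*, against 673 in Δ*clrB* and 127 in the wild type. The lowest Δ*amyR* library had more than the highest Δ*clrB* library by far, and the level left in Δ*clrB* exceeded that of most other cellulase genes there.

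The second cellobiohydrolase gene and most of the endoglucanase genes called had higher fold changes than *cbh1*. *Cel6A* (PDE_07124), whose product works from the opposite chain end to Cbh1, had 5116, 5621 and 3607 RPKM in Δ*amyR*, against 9.82, 15.9 and 11.5 RPKM in Δ*clrB*. Its log2 fold change was 8.82 ± 0.46 (SE, adjusted p = 2.62e-11), a 451-fold difference. Endoglucanases cut inside the cellulose chain, and *eg2* (PDE_09226) had 3619, 3987 and 2916 RPKM in Δ*amyR*, against 11.9, 7.53 and 9.95 RPKM in Δ*clrB* (log2 fold change 8.72 ± 0.34, SE, adjusted p = 1.48e-13). By mean RPKM, *Cel6A* and *eg2* transcripts ranked 18 and 34 in Δ*amyR*, against 6346 and 6794 in Δ*clrB*.

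The adjacent genes *Cel7B* (PDE_07929) and *Cel45A* (PDE_07928), also endoglucanases, gave nearly equal fold changes. *Cel7B* had 3799, 4148 and 3525 RPKM in Δ*amyR*, against 50.1, 36.8 and 33.2 RPKM in Δ*clrB* (log2 fold change 6.82 ± 0.28, SE, adjusted p = 2.91e-13). *Cel45A* had 2761, 3165 and 2883 RPKM in Δ*amyR*, against 34.5, 32.1 and 25.5 RPKM in Δ*clrB* (log2 fold change 6.81 ± 0.32, SE, adjusted p = 3.75e-12). Replicates of each mutant lay close together for both genes. The remaining endoglucanase genes of family 5 that were named, *Cel5C* (PDE_09969) and *Cel5A* (PDE_00507), changed by 7.06 and 6.04 on the log2 scale. *Cel5A* was the noisier in Δ*clrB*, at 14.8, 43.8 and 15.7 RPKM, yet its Δ*amyR* values of 1369, 1525 and 1268 RPKM stood far above all 3.

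*Cel61A* (PDE_05633) encodes a lytic polysaccharide monooxygenase, an enzyme that cleaves cellulose by oxidation. It had 397, 322 and 161 RPKM in Δ*amyR*, against 0.174, 0.959 and 0.504 RPKM in Δ*clrB*, where these values rest on 1, 5 and 3 reads. Its fitted log2 fold change, 9.28 ± 0.54 (SE, adjusted p = 9.62e-11), was the highest of the list. The endoglucanase gene PDE_05193 had 272, 132 and 51 reads in Δ*amyR*, against 2, 1 and 1 reads in Δ*clrB*, which sets the difference at 48.4-fold or more. PDE_01261, named a cellulose monooxygenase or an endoglucanase by different annotations, had 680.5, 659 and 532 RPKM in Δ*amyR*, against 36.5, 26.3 and 21.5 RPKM in Δ*clrB* (log2 fold change 4.72 ± 0.26, SE, adjusted p = 3.90e-11). At low levels, the cellobiohydrolase gene PDE_05445 changed by 3.05 and the xyloglucanase gene PDE_06439 by 1.60 on the log2 scale.

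**Figure D2:**
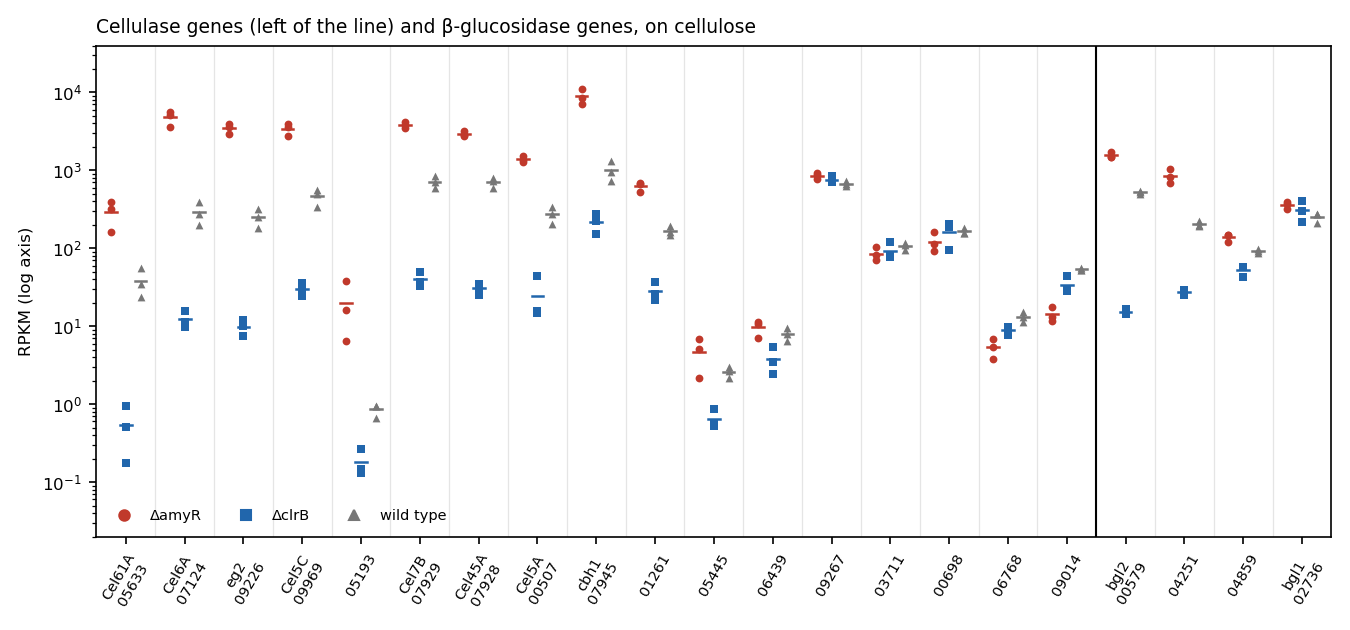
RPKM on a log axis for 17 cellulase genes and, right of the black line, 4 β-glucosidase genes, with gene names or locus numbers on the horizontal axis. Red circles are Δ*amyR* libraries, blue squares Δ*clrB* libraries and grey triangles wild-type libraries (3 each), and bars mark group means. For the 10 genes at the left the red points lie above the grey and the grey above the blue. *cbh1* spans 7098 to 11191 RPKM in Δ*amyR* and 155 to 275 RPKM in Δ*clrB*.

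Another 5 cellulase genes were not higher in Δ*amyR*. PDE_09267 had 914, 861 and 781 RPKM in Δ*amyR*, against 752, 699 and 838 RPKM in Δ*clrB*, so it was abundant in each mutant (log2 fold change 0.38 ± 0.16, SE, adjusted p = 0.139). PDE_03711 at 0.13, PDE_00698 at -0.17 and PDE_06768 at -0.51 on the log2 scale were not called either. PDE_09014, annotated as an endoglucanase, was called lower at 11.5, 13.3 and 17.8 RPKM in Δ*amyR*, against 44.0, 29.5 and 28.5 RPKM in Δ*clrB* and 52.7, 53.3 and 56.1 RPKM in the wild type. Its log2 fold change of -1.02 ± 0.25 (SE, adjusted p = 0.0126) was just past the threshold, and the call was lost without Δ*amyR* replicate 1 (-0.86 to -1.20 over all single libraries left out), Δ*amyR* replicate 2 or Δ*clrB* replicate 1.

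β-Glucosidases split the cellobiose released by cellulases into glucose. Of 4 genes, 3 were higher in Δ*amyR* and none was lower, where 1.45% of all genes tested were called higher and 2.94% lower. The study predicted more β-glucosidase genes than these 4, which its text names, partly for changes it found in these samples. The 3 of 4 therefore does not describe the whole family, and its direction is not independent evidence. The list took 0.601%, 0.576% and 0.487% of the reads in Δ*amyR*, against 0.0740%, 0.0957% and 0.121% in Δ*clrB*. *bgl2* (PDE_00579), the gene of the main intracellular β-glucosidase, had 1480.1, 1726 and 1479 RPKM in Δ*amyR*, against 14.7, 14.3 and 16.4 RPKM in Δ*clrB* and 551, 521 and 493 RPKM in the wild type. This was a 120.2-fold difference, a log2 fold change of 6.91 ± 0.24 (SE, adjusted p = 2.01e-14), with tight replicates in each strain. PDE_04251 had 1041, 822 and 683 RPKM in Δ*amyR*, against 29.1, 28.6 and 25.5 RPKM in Δ*clrB* (log2 fold change 5.17 ± 0.28, SE, adjusted p = 4.65e-11), and PDE_04859 changed by 1.63 on the log2 scale. *bgl1* (PDE_02736) overlapped between the mutants at 393, 374 and 319 RPKM in Δ*amyR*, against 217, 301 and 410.3 RPKM in Δ*clrB*, and was not called (log2 fold change 0.43 ± 0.28, SE, adjusted p = 0.353).

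Cellodextrin transporters bring cellobiose and longer glucose chains into the hypha. Of 8 sugar transporter genes, 5 were higher in Δ*amyR* and 3 were not called (median log2 fold change 1.30), of which 1 was lower at an unadjusted p under 0.05. Over all genes tested, 1.45% were called higher and 2.94% lower. The list was taken from the study's tables and text, part of which rest on these samples. The 5 higher genes are ones that the text describes as dependent on ClrB or induced by it in this series. Their count and direction are therefore not independent evidence. *cdtC* (PDE_00607) had 4146, 4152 and 3301 RPKM in Δ*amyR*, against 15.9, 20 and 15.5 RPKM in Δ*clrB* and 1812, 1853 and 2023 RPKM in the wild type, a log2 fold change of 8.04 ± 0.28 (SE, adjusted p = 2.01e-14). The second cellodextrin transporter gene, *cdtD* (PDE_00753), differed far less, at 3661, 3481 and 3155 RPKM in Δ*amyR*, against 1294, 1747 and 1487 RPKM in Δ*clrB* (log2 fold change 1.41 ± 0.18, SE, adjusted p = 2.34e-05). By mean RPKM, *cdtC* ranked 27 in Δ*amyR* and 5657 in Δ*clrB*, whereas *cdtD* ranked 35 in Δ*amyR* and 72 in Δ*clrB*.

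Among the remaining transporters, PDE_06576, predicted to carry maltose-type sugars, had 565, 569.9 and 359.9 RPKM in Δ*amyR*, against 23.0, 29.0 and 28.7 RPKM in Δ*clrB* (log2 fold change 4.43 ± 0.27, SE, adjusted p = 2.12e-10). PDE_04857, a predicted monosaccharide transporter, had 295, 263 and 198 RPKM in Δ*amyR*, against 14.1, 15.2 and 21.1 RPKM in Δ*clrB* (log2 fold change 4.12 ± 0.26, SE, adjusted p = 3.03e-10). PDE_07257 passed the test at 1.19 but not the fold threshold under limma or scaling by library totals, where it ranged down to 0.94. The α-glucoside transporter genes did not move as a group. PDE_03571 and PDE_09994 were not called, and PDE_04150 had 51.0, 72.6 and 154 RPKM in Δ*amyR*, against 259, 303 and 192 RPKM in Δ*clrB*, without overlap. Its log2 fold change of -1.22 ± 0.42 (SE, adjusted p = 0.068) missed the threshold in the main fit but passed it with 5 of 14 alternatives, among them the fit without Δ*amyR* replicate 3, which had the highest value in that mutant.

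Starch degradation genes showed the opposite order of the mutants. Of 8 genes, 5 were lower in Δ*amyR*, 1 was higher and 2 were not called, with a median log2 fold change of -2.12, and these counts were the same with every alternative. Among all genes tested, 2.94% were called lower and 1.45% higher. The list took 0.189%, 0.188% and 0.153% of the reads in Δ*amyR*, against 0.244%, 0.407% and 0.207% in Δ*clrB* and 0.843% to 0.925% in the wild type. The wild-type mean RPKM was above both mutants for all 8 genes, as it was for 5996 of the 9176 genes tested, and for PDE_00122 the wild-type and Δ*amyR* values overlapped. This list too was drawn from tables and text that used these samples.

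*Amy13A* (PDE_01201) encodes an α-amylase, which cuts inside starch chains. It had 1.07, 2.37 and 1.44 RPKM in Δ*amyR*, against 124, 165 and 67.4 RPKM in Δ*clrB* and 326, 302 and 245 RPKM in the wild type. The gene was 60.9-fold lower in Δ*amyR* than in Δ*clrB* (log2 fold change -5.93 ± 0.50, SE, adjusted p = 4.10e-08). *gluA* (PDE_09417), encoding the glucoamylase that frees glucose from chain ends, had 18.6, 19.3 and 26.5 RPKM in Δ*amyR*, against 340.1, 680.0 and 250.3 RPKM in Δ*clrB* and 1324, 1332 and 1283 RPKM in the wild type. Its log2 fold change was -4.07 ± 0.43 (SE, adjusted p = 1.71e-06), and in both genes the mutants were far from overlapping although the Δ*clrB* values themselves spread more than 2-fold.

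PDE_01354, a protein with a starch binding domain, had 16.7, 18.9 and 16.3 RPKM in Δ*amyR*, against 151, 276 and 87.1 RPKM in Δ*clrB* and 1099, 1236 and 971 RPKM in the wild type (log2 fold change -3.06 ± 0.34, SE, adjusted p = 3.72e-06). The α-glucosidase gene PDE_03966, close in number to *amyR*, had 1.77, 2.14 and 3.41 RPKM in Δ*amyR*, against 17, 29.7 and 14.5 RPKM in Δ*clrB* and 169, 194 and 162 RPKM in the wild type (log2 fold change -2.83 ± 0.28, SE, adjusted p = 5.25e-07). α-Glucosidases release glucose from maltose and short starch chains. Another of them, PDE_04151, whose number adjoins that of the transporter gene PDE_04150, had 54.5, 52.9 and 85.1 RPKM in Δ*amyR*, against 239.6, 222 and 142 RPKM in Δ*clrB* (log2 fold change -1.41 ± 0.28, SE, adjusted p = 0.00242).

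The second glucoamylase gene PDE_05527 had 35.8, 39.6 and 35.1 RPKM in Δ*amyR*, against 56.3, 86.0 and 50.4 RPKM in Δ*clrB*, without overlap, but was not called (log2 fold change -0.57 ± 0.20, SE, adjusted p = 0.0698). The α-glucosidase gene PDE_00400 overlapped between the mutants at 283, 268 and 187 RPKM in Δ*amyR*, against 217, 377 and 268 RPKM in Δ*clrB*, with 761, 832 and 801 RPKM in the wild type. The 1 member that was higher, PDE_00122, encodes a glycogen or starch phosphorylase, an enzyme that works on stored glucan inside the cell. It had 346, 351 and 278 RPKM in Δ*amyR*, against 85.9, 189.8 and 98.8 RPKM in Δ*clrB* and 279, 363 and 333 RPKM in the wild type (log2 fold change 1.60 ± 0.38, SE, adjusted p = 0.00922).

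**Figure D3:**
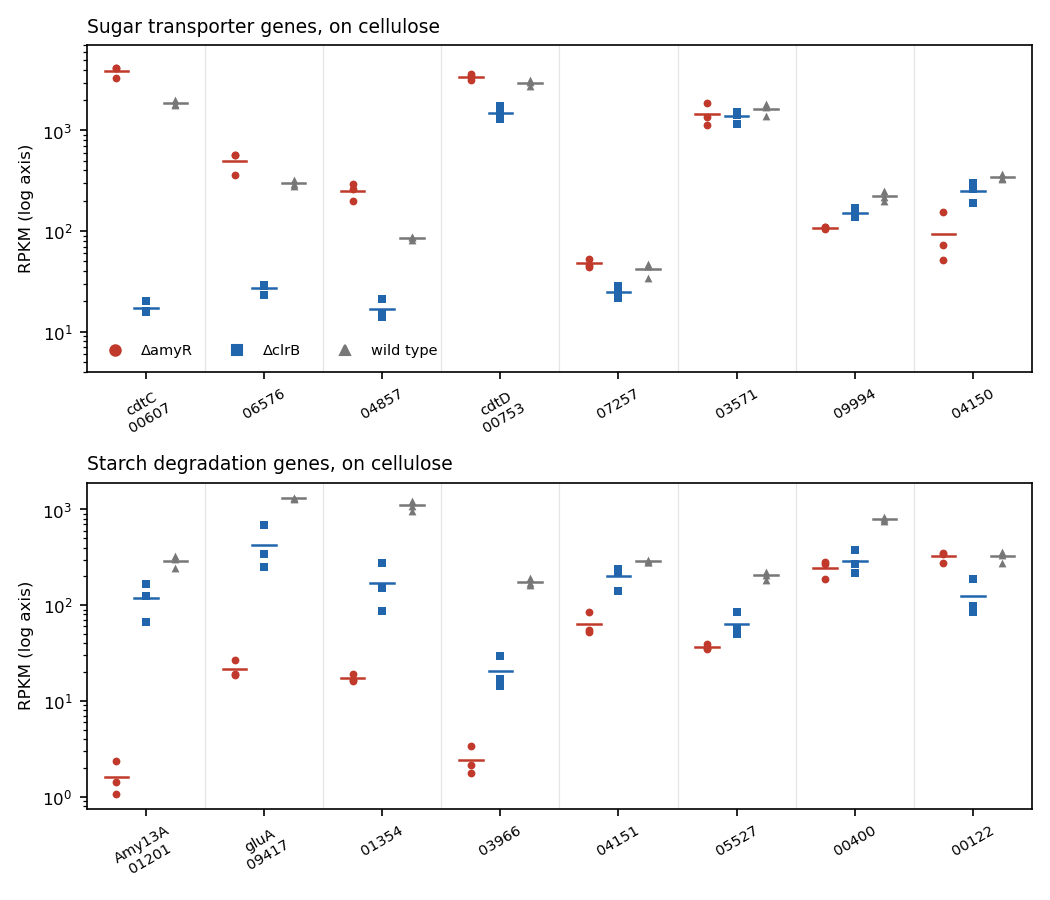
RPKM on log axes for 8 sugar transporter genes (top) and 8 starch degradation genes (bottom), with gene names or locus numbers on the horizontal axis. Red circles are Δ*amyR* libraries, blue squares Δ*clrB* libraries and grey triangles wild-type libraries (3 each), and bars mark group means. In the top panel *cdtC* lies between 3301 and 4152 RPKM in Δ*amyR* and at 20 RPKM or less in Δ*clrB*. In the bottom panel the red points of *Amy13A*, *gluA*, PDE_01354 and PDE_03966 lie well below the blue points, and the grey points lie above both.

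Hemicelluloses such as xylan, mannan and xyloglucan surround cellulose in the plant cell wall, and their enzymes fell into groups with different behaviour. Of 31 genes for xylan and hemicellulose breakdown, 11 were higher in Δ*amyR*, 1 was lower and 19 were not called, 14 of these with a positive fold change. Of all genes tested, 1.45% were called higher and 2.94% lower. The list was assembled from tables chosen on these samples. Together its genes took 5.69%, 5.47% and 4.68% of the reads in Δ*amyR*, against 2.31%, 3.15% and 2.41% in Δ*clrB* and 1.94% to 2.40% in the wild type. The median log2 fold change, 0.60, was far under that of the cellulase genes.

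The mannan genes were among the most changed. The β-mannanase gene PDE_06023 had 2566, 1864 and 1669 RPKM in Δ*amyR*, against 31, 32.9 and 32.4 RPKM in Δ*clrB*, a 73.9-fold difference (log2 fold change 6.21 ± 0.25, SE, adjusted p = 2.30e-13). The β-mannosidase gene PDE_05998, whose number adjoins that of *clrB*, had 758, 577 and 484 RPKM in Δ*amyR*, against 38.9, 33.4 and 29.8 RPKM in Δ*clrB* (log2 fold change 4.39 ± 0.31, SE, adjusted p = 2.96e-09). The swollenin gene PDE_02102, whose product loosens cellulose without cutting it, had 3525, 3780.5 and 3275 RPKM in Δ*amyR*, against 78.3, 84.6 and 44.0 RPKM in Δ*clrB* (log2 fold change 5.92 ± 0.37, SE, adjusted p = 3.07e-10). All 3 genes were far lower in Δ*clrB* than in Δ*amyR*, and the values in Δ*amyR* stood above those of the wild type. The xylanase gene PDE_02101, next in number to the swollenin gene, had 3296, 3379.8 and 3055 RPKM in Δ*amyR*, against 423, 727 and 421 RPKM in Δ*clrB* (log2 fold change 2.86 ± 0.23, SE, adjusted p = 2.35e-08).

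Other members acted on xylan or its side chains. The α-xylosidase genes PDE_06944 and PDE_03010, which work on xyloglucan pieces, changed by 3.79 and 2.29 on the log2 scale. The acetyl xylan esterase genes PDE_01302 and PDE_09278, the β-xylosidase gene PDE_09710 and the feruloyl esterase gene PDE_06649 changed by 4.15, 1.64, 4.21 and 2.36. *xyn1* (PDE_08094), a xylanase gene, had 12974, 13858 and 11787 RPKM in Δ*amyR*, against 2021, 3267 and 3050.0 RPKM in Δ*clrB* (log2 fold change 2.43 ± 0.28, SE, adjusted p = 4.96e-06). It kept a high level in Δ*clrB*, near the 3320.2, 3661 and 2352 RPKM of the wild type.

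The most abundant member was not called. The xylanase gene PDE_04478 ranked 1 among all genes in both mutants and 3 in the wild type, with 18858, 17714 and 15302 RPKM in Δ*amyR*, against 18277, 24904 and 18721 RPKM in Δ*clrB* (log2 fold change -0.03 ± 0.24, SE, adjusted p = 0.96). The acetyl xylan esterase gene PDE_04182 likewise overlapped at 2087, 1996 and 1745 RPKM in Δ*amyR*, against 2105, 3178 and 1760.0 RPKM in Δ*clrB*. PDE_07585, an α-L-arabinofuranosidase gene, was called lower at 61.4, 81.8 and 82.8 RPKM in Δ*amyR*, against 315, 81.3 and 148 RPKM in Δ*clrB*, but its values overlapped and the call was lost in 7 of 14 alternatives, with log2 fold changes from -1.36 to -0.44.

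Of 20 regulator genes that the study had screened for effects on cellulase production, 3 were higher in Δ*amyR*, 1 was lower and 16 were not called, *clrB* and *amyR* being counted among the 3 and the 1. The shares over all genes tested were 1.45% higher and 2.94% lower. *clrB-2* (PDE_05883), a putative regulator of cellulose breakdown, had 55.2, 51.1 and 47.7 RPKM in Δ*amyR*, against 7.79, 6.17 and 6.62 RPKM in Δ*clrB* and 16.2, 16.7 and 15.5 RPKM in the wild type. The log2 fold change was 3.13 ± 0.18 (SE, adjusted p = 7.58e-11), and the wild type lay between the mutants. *creA* (PDE_03168) had 394, 438 and 328 RPKM in Δ*amyR*, against 209.9, 209 and 200.0 RPKM in Δ*clrB* and 371, 313 and 307 RPKM in the wild type (log2 fold change 1.14 ± 0.16, SE, adjusted p = 0.000164). Its groups did not overlap, but under limma or with scaling by library totals the fold change dropped under the threshold, to 0.89 at the lowest on the log2 scale.

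The xylanase regulator gene *xlnR* (PDE_07674) had 71.7, 60.8 and 49.1 RPKM in Δ*amyR*, against 37.6, 42.4 and 36.0 RPKM in Δ*clrB*, a log2 fold change of 0.87 ± 0.22 (SE, adjusted p = 0.0136) under the fold threshold. *stuA* (PDE_04095), a regulator of conidiation, and PDE_08462 were likewise past the p threshold and under the fold threshold, at 0.89 and 0.94. With Δ*amyR* replicate 3 left out, 6 of the 20 genes were called higher, *xlnR*, *stuA* and PDE_08462 among them. The repressor gene *ace1* (PDE_01988) overlapped between the mutants at 201, 239 and 250.4 RPKM in Δ*amyR*, against 215, 210.0 and 260.1 RPKM in Δ*clrB*.

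**Figure D4:**
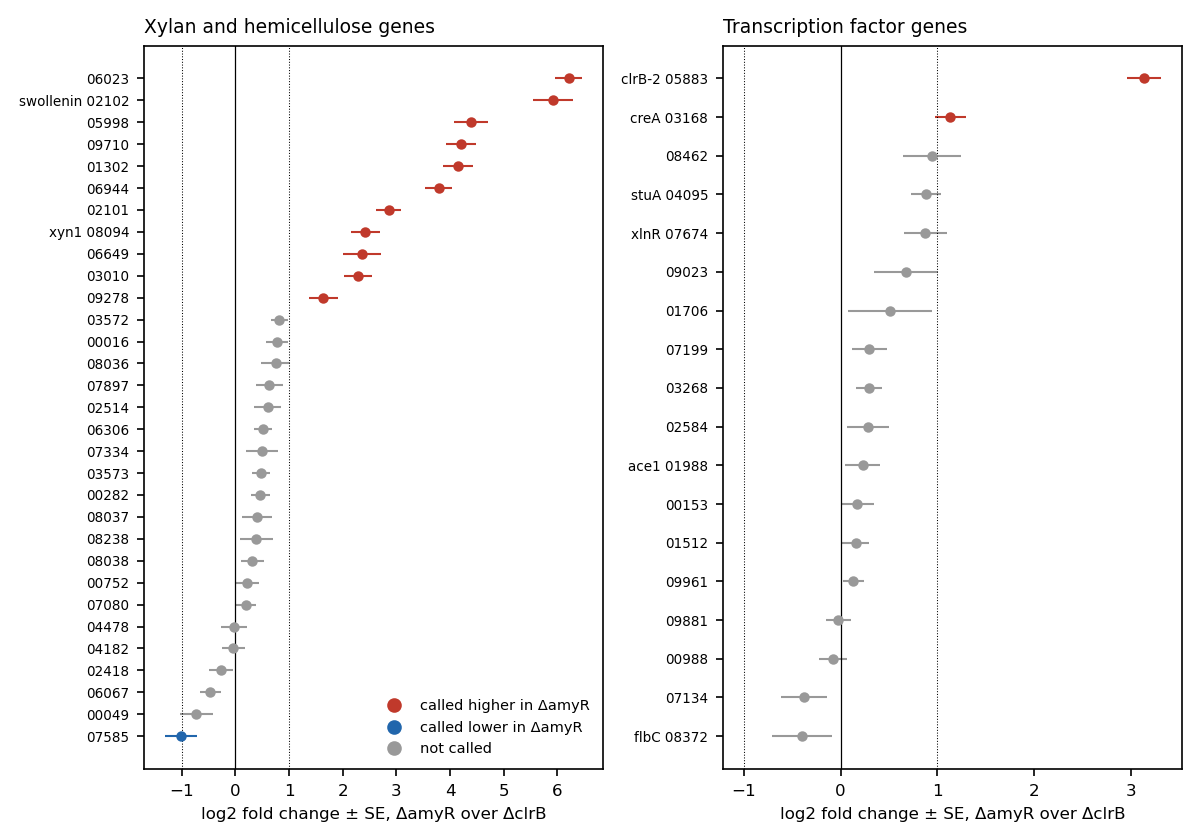
Fitted log2 fold change of Δ*amyR* over Δ*clrB*, on the horizontal axes, with its standard error as a bar, for 31 xylan and hemicellulose genes (left) and transcription factor genes (right), with gene names or locus numbers on the vertical axes. Red points were called higher in Δ*amyR*, blue points lower, grey points were not called, and dotted lines mark a 2-fold change. The deleted genes *clrB* and *amyR* are not drawn. At the left 11 genes stand apart at 1.64 or above, and at the right *clrB-2* stands alone at 3.13.

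Of 5 development genes, 2 sporulation genes were lower in the Δ*amyR* mutant and 3 were not called, where 2.94% of all genes tested were called lower. PDE_09832, the most abundant transcript of the wild type, had 2095, 1760.5 and 2496 RPKM in Δ*amyR*, against 5627, 10351 and 5938 RPKM in Δ*clrB* and 10347, 12104 and 14428 RPKM in the wild type (log2 fold change -1.57 ± 0.36, SE, adjusted p = 0.00691). PDE_09715 had 509, 458 and 560.2 RPKM in Δ*amyR*, against 1352, 2001 and 713 RPKM in Δ*clrB* (log2 fold change -1.17 ± 0.29, SE, adjusted p = 0.0126), a call lost without Δ*amyR* replicate 2 or Δ*clrB* replicate 2 and with only the 6 libraries in the fit. PDE_04496, which encodes scytalone dehydratase of the melanin pathway, was not called at -1.06 unless Δ*clrB* replicate 3 was left out or DESeq2, limma on log2(RPKM + 1) or scaling by library totals was used. The conidiation regulator gene *flbC* (PDE_08372), at -0.40, was not called. The sporulation genes were named by the study from a cluster of genes it found in these samples, so they are not an independent measure of development. How far the mycelia had developed was not measured, and its part in the other results was not tested.

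Genes for making and glycosylating proteins shifted by small amounts that did not reach the threshold. None of the 82 ribosomal protein genes was called by the quasi-likelihood test of edgeR, although 18 were lower at an unadjusted p under 0.05 and 3 at an adjusted p under 0.05, with fold changes below 2. DESeq2 called none and limma called 2. All 82 had negative log2 fold changes, from -1.03 to -0.13 with a median of -0.32, against -0.03 for all genes tested. Their reads made up 0.607%, 0.476% and 0.533% of Δ*amyR* libraries, against 0.959%, 0.995% and 0.444% of Δ*clrB* libraries and 1.35% to 1.46% of wild-type libraries. Δ*clrB* replicate 3 thus lay with the Δ*amyR* libraries, the mutants overlapped for 75 of the 82 genes, and 1 gene was called lower without that library or without Δ*amyR* replicate 1. The 9 genes of protein glycosylation and translocation, such as subunits of the oligosaccharyltransferase and of the SEC61 channel, were not called either by this test or by any alternative, and 2 were lower at an unadjusted p under 0.05, with log2 fold changes from -0.44 to -0.08. For all genes of these lists, which the study chose on these samples, the wild-type mean RPKM was above both mutants, as it was for 5996 of all 9176 genes. The study reported both kinds of gene as enriched among those lower in Δ*amyR* than in the wild type. The lists thus favour genes low in Δ*amyR*, so their shared sign and the wild-type position are not independent evidence.

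The largest decreases in Δ*amyR* outside the starch genes lay at neighbouring locus numbers. Of the 9 genes PDE_01187 to PDE_01195, a set chosen after its values were seen, 7 were called lower, with a median log2 fold change of -5.22. PDE_01194, a glutathione S-transferase by its annotation, had 140.3, 154 and 99.5 RPKM in Δ*amyR*, against 322, 16688 and 4483 RPKM in Δ*clrB* and 8233, 748 and 809.6 RPKM in the wild type (log2 fold change -5.56 ± 1.58, SE, adjusted p = 0.0268). PDE_01193 had 4.51, 5.43 and 10.3 RPKM in Δ*amyR*, against 35.3, 1023 and 710.1 RPKM in Δ*clrB* and 591, 44.3 and 73.6 RPKM in the wild type (log2 fold change -6.27 ± 1.36, SE, adjusted p = 0.005). The Δ*amyR* replicates were close together and low, whereas replicates of Δ*clrB* and of the wild type spread widely. In each of the 7 called genes the mutants did not overlap, but 1 gene was called when any single Δ*amyR* replicate or Δ*clrB* replicate 2 was left out, and 5 without Δ*clrB* replicate 3. Without Δ*clrB* replicate 1, the lowest of the 3, 7 were called and the median was -5.77, and without Δ*clrB* replicate 2, the highest, the median was -4.05. PDE_01190, in the middle of the set, overlapped at 67.8, 81.5 and 96.5 RPKM in Δ*amyR*, against 90.4, 109 and 103 RPKM in Δ*clrB*.

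PDE_03365, annotated as a monooxygenase, and PDE_07956, annotated as a salicylate hydroxylase, were the remaining large decreases. PDE_03365 had 21.4, 38.7 and 44.8 RPKM in Δ*amyR*, against 116, 1019 and 1716 RPKM in Δ*clrB* and 819, 338 and 256 RPKM in the wild type (log2 fold change -4.60 ± 0.72, SE, adjusted p = 0.000313). PDE_07956 had 6.68, 7.50 and 19.2 RPKM in Δ*amyR*, against 111, 189 and 397 RPKM in Δ*clrB* and 124, 8.62 and 35.8 RPKM in the wild type (log2 fold change -4.21 ± 0.76, SE, adjusted p = 0.00127). In each the Δ*clrB* replicates spread widely without reaching the Δ*amyR* values.

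Runs of 4 or more consecutive locus numbers called in the same direction were found 6 times, 4 of them lower in Δ*amyR*. The longest held the 12 genes PDE_09999 to PDE_10010, whose annotations include a paspaline synthase (PDE_10000), a geranylgeranyl diphosphate synthase (PDE_10001) and a verruculogen synthase (PDE_10009), enzymes of fungal indole compound synthesis. Its log2 fold changes ran from -2.84 to -1.13. PDE_10000 had 13.5, 12.3 and 12.2 RPKM in Δ*amyR*, against 28.9, 43.1 and 26.8 RPKM in Δ*clrB* and 54.3, 62.9 and 62.4 RPKM in the wild type. The mutants did not overlap for any of the 12 genes, and the wild-type mean RPKM lay above both, as for 5996 of all 9176 genes. The run kept 8 calls without Δ*amyR* replicate 1, 6 without Δ*amyR* replicate 2 and 9 without Δ*amyR* replicate 3. It kept 6 calls without Δ*clrB* replicate 2, 9 without Δ*clrB* replicate 3 and 12 without Δ*clrB* replicate 1.

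The remaining lower runs were PDE_00794 to PDE_00798 (5 genes), PDE_00803 to PDE_00809 (7 genes) and PDE_01064 to PDE_01068 (5 genes), whose products are mostly annotated as hypothetical. PDE_00806 had 8.34, 4.82 and 5.18 RPKM in Δ*amyR*, against 30.0, 38.6 and 23.7 RPKM in Δ*clrB* and 43.2, 57.6 and 53.4 RPKM in the wild type (log2 fold change -2.10 ± 0.39, SE, adjusted p = 0.00159). PDE_01066, annotated as a prenyltransferase of cyclic dipeptides, had 29.0, 23.3 and 23.1 RPKM in Δ*amyR*, against 80.1, 95.8 and 48.7 RPKM in Δ*clrB* and 126, 132 and 128 RPKM in the wild type (log2 fold change -1.34 ± 0.25, SE, adjusted p = 0.00142). As in the longest run, the mean of each gene was lowest in Δ*amyR*, intermediate in Δ*clrB* and highest in the wild type. Of the 12 genes in the first pair of these runs, 8 stayed called without Δ*amyR* replicate 2 and 8 without Δ*clrB* replicate 2.

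The higher runs were PDE_03926 to PDE_03930 and PDE_06576 to PDE_06579. PDE_03928, a hypothetical protein gene, had 37.5, 30.2 and 37.4 RPKM in Δ*amyR*, against 0.474, 0.872 and 0.153 RPKM in Δ*clrB* and 52.5, 59.3 and 57.5 RPKM in the wild type (log2 fold change 6.34 ± 0.36, SE, adjusted p = 6.26e-11). PDE_03927 had 89.9, 81.8 and 134 RPKM in Δ*amyR*, against 3.65, 4.80 and 2.58 RPKM in Δ*clrB* and 172, 188 and 212 RPKM in the wild type (log2 fold change 5.02 ± 0.34, SE, adjusted p = 1.39e-09). In 4 of the 5 genes of this run the wild-type mean RPKM was above both mutants. All 5 stayed called with each alternative. In the second run, PDE_06577, next in number to the transporter gene PDE_06576, had 13.4, 15.3 and 19.3 RPKM in Δ*amyR*, against 0, 0.685 and 0 RPKM in Δ*clrB*, a difference of at least 16.8-fold against the floor of 3 reads per library. PDE_06579, at 1.13, lost its call under limma and with scaling by library totals.

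**Figure D5:**
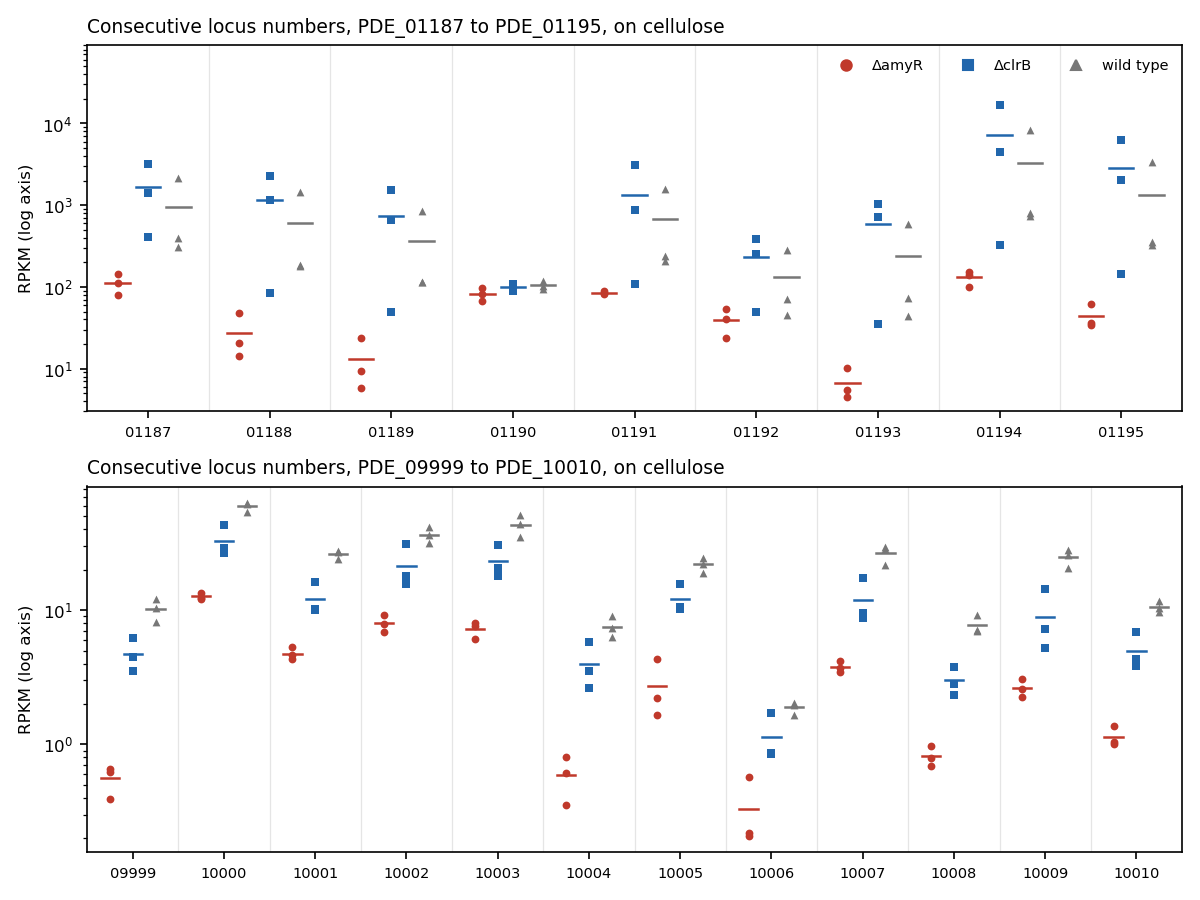
RPKM on log axes for the genes PDE_01187 to PDE_01195 (top) and the genes PDE_09999 to PDE_10010 (bottom), with locus numbers on the horizontal axis. Red circles are Δ*amyR* libraries, blue squares Δ*clrB* libraries and grey triangles wild-type libraries (3 each), and bars mark group means. At the top the blue and grey points of most genes spread widely, from 322 to 16688 RPKM in Δ*clrB* for PDE_01194, above tight red points. At the bottom the red mean lies lowest, the blue between and the grey highest in each gene.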

How the data were processed

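RNA was measured by RNA-seq in 24 libraries of *P. oxalicum*, of which 6 were compared. The authors mapped reads to the predicted transcripts of strain 114-2 with SOAP2 (version not given in the sources used here) and counted the uniquely mapped reads per gene, and the submitters' processing notes name CASAVA 1.8. The table deposited by the authors gives, for 9832 genes in each library, these read counts, the percent of the gene covered by reads (coverage) and the RPKM, which the authors scaled to all reads on genes and to transcript length. A dash was read as 0 reads. Whether libraries kept the strand was not given, so overlapping antisense transcripts cannot be told apart, and near-identical genes may share reads. Columns of the authors' own comparisons were not used.

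Counts were tested with edgeR 4.0.16 (quasi-likelihood test, TMM scaling, no covariate) in R 4.3.3, in 1 fit with a mean for each of 8 groups, after keeping the 9176 genes that reached an RPKM of 1 in 3 or more libraries. P-values were adjusted over all genes tested by the Benjamini-Hochberg method. Where single genes are described, a fitted fold change of a gene with at most 3 reads in every library of a group was replaced by a bound. The bound is against 3 reads per library and covers counting error only. Calls, counts of genes by size of change and figures used the fitted values. The common dispersion, 0.0395, is a replicate coefficient of variation of 19.9%. On simulated counts with 200 changed genes of 9176 at the depths of this comparison, edgeR recovered 199 with 2 false calls. The simulation gave every gene the same spread, close to the common dispersion, and changed only genes with enough reads. No difference in scaling between groups was built in. The planted changes were all past the fold threshold, so recovery of changes close to it was not tested. Recovery of genes with a wider spread, such as many lower genes in Δ*clrB*, was not tested either. Alternatives were limma 3.58.1 on log2(RPKM + 1) and log2(RPKM + 0.1), DESeq2 1.42.0, no filter, median-ratio scaling, scaling to library totals, only the 6 libraries in the fit, a replicate block, and each library left out. Replicates are separate samples by the labels, with no batch given. The p-values rest on a spread between replicates estimated over all 24 libraries in 8 groups, not only over the 6 compared.

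Genes were named by rule: the deleted genes, the members of 9 lists from the study's text and annotation tables, the 10 largest changes each way among called genes without overlap, the 5 largest bounds each way, runs of 4 or more consecutive locus numbers called alike, and actin. Members and lists were chosen with earlier results of these data known. Gene names and functions are those of the study's tables and KEGG annotation. None of the locus numbers matched the RefSeq annotation used here, which is of another strain, so no coordinates or sequences are given.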

Additional observations from a re-analysis of the deposited data

How the results depend on the processing

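The numbers of genes called higher (133), lower (270) and in all (403) stayed within 1.5 times under most of the 14 alternatives. The exceptions were 87 higher with limma on log2(RPKM + 1), 452 lower with limma on log2(RPKM + 0.1), 498 lower with scaling to library totals, and 153 lower and 258 in all without Δ*amyR* replicate 2. Leaving out single libraries gave 105 to 163 higher, 153 to 271 lower and 258 to 417 in all, and of the 153 lower genes without Δ*amyR* replicate 2, 147 were among the 270. Higher calls made up 33.0% of all calls, against 19.3% and 17.4% with limma on log2(RPKM + 1) and log2(RPKM + 0.1) and 15.9% with scaling to library totals, where the median of all genes moved to -0.23, -0.25 and -0.26. The counts of higher cellulase, β-glucosidase and starch genes and of lower starch genes did not change under any of the 14. Without single libraries, the lower cellulase genes were 0 to 1, lower hemicellulose genes 0 to 1, lower transporter genes 0 to 1, higher transcription factor genes 3 to 6, lower ribosomal protein genes 0 to 1, higher development genes 0 to 1 and lower development genes 1 to 3. Both limma fits, scaling to library totals and DESeq2 called 1 transporter gene lower. Both limma fits and scaling to library totals called 2 ribosomal protein genes lower. With only the 6 libraries in the fit, 130 genes were higher and 213 lower. Of the 133 higher genes 117 kept their call then, and of the 270 lower genes 194. That fit called 0 hemicellulose genes and 1 development gene lower. The cause of these shifts was not tested, apart from the fewer samples in some fits. The replicate numbers did not pair the samples (correlations of same-numbered deviations 0.030, -0.078 and 0.008), and the fit with a replicate block called 133 higher and 257 lower, with 0 hemicellulose genes lower. Of 106 named genes called, 73 were called under every alternative and none of their directions reversed. Depth limits genes under about 3 reads per library, where only bounds are given.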

Other observations

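Genes for breaking down leucine, isoleucine and valine, a set chosen from KEGG annotation after the values were seen, were mostly lower in Δ*amyR*. Of 10 genes, 9 were called lower, with a median log2 fold change of -2.42 over the set. KEGG names were taken only from 1057 genes in the study's lists, most of which hold genes it found changed in these samples. Pathway genes outside those lists could not enter the set, so the 9 of 10 does not describe the whole pathway. The 9 genes encode enzymes of several steps, not all in 1 succession: aminotransferases (PDE_03805 and PDE_09053), the branched-chain keto acid dehydrogenase (PDE_08806, PDE_09047 and PDE_08539), isovaleryl-CoA dehydrogenase (PDE_09757), both subunits of 3-methylcrotonyl-CoA carboxylase (PDE_09769 and PDE_09756) and 3-hydroxyisobutyrate dehydrogenase (PDE_07996). PDE_08806, the alpha subunit of the keto acid dehydrogenase, had 8.46, 10.9 and 17.1 RPKM in Δ*amyR*, against 29.7, 129 and 372 RPKM in Δ*clrB* and 106, 116 and 86.3 RPKM in the wild type (log2 fold change -3.71 ± 0.57, SE, adjusted p = 0.000252). PDE_09757 had 26.2, 35.0 and 50.4 RPKM in Δ*amyR*, against 88.1, 242 and 679 RPKM in Δ*clrB* and 231, 244 and 179 RPKM in the wild type (log2 fold change -3.02 ± 0.47, SE, adjusted p = 0.00028). The mutants did not overlap for any of the 9 genes, and Δ*clrB* replicate 3 was far above the other replicates of that strain. Without it 8 of the 9 calls were made and the median was -1.61. PDE_09053 was the call lost then, and it was also lost without any single Δ*amyR* replicate. The aminotransferase gene PDE_01215, by far the most abundant of the set, had 4554, 6191 and 7521 RPKM in Δ*amyR*, against 4345, 2692 and 4424 RPKM in Δ*clrB*, and was not called (log2 fold change 0.89 ± 0.42, SE, adjusted p = 0.186).

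Actin (PDE_01092), the reference gene of the study's quantitative PCR, had 1251, 1124 and 1105 RPKM in Δ*amyR*, against 1066, 1022 and 886 RPKM in Δ*clrB*, a log2 fold change of 0.46 ± 0.12 (SE, adjusted p = 0.0171) that was under the fold threshold. Genes with at most 3 reads in every library of the lower strain were called 5 times as higher and 13 times as lower. Besides *clrB*, PDE_05193 and PDE_06577, the higher ones included PDE_04886, at least 2.05-fold higher in Δ*amyR*, and PDE_05937, for which no fold is given because its level in Δ*amyR* was under the floor. Besides *amyR*, whose call was kept throughout, the lower ones with the largest bounds were PDE_09236 at 5.26-fold, PDE_03094 at 5.25-fold, PDE_04665 at 4.96-fold and PDE_05447 at 4.03-fold or more. The calls of PDE_09236, PDE_04665 and PDE_05447, and those of PDE_04886 and PDE_05937, were lost without 1 or more of the single libraries.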
